A study of Homo sapiens with 6 samples.

Results

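The genes described here lie on the distal end of the long arm of human chromosome 22, and their transcripts were compared between mutant and wild-type HEK293 cells. Members were the chromosome 22 genes with a mean of at least 1 FPKM (fragments scaled to gene length and library total) over the 6 libraries. Of 1412 chromosome 22 genes in the table, 333 met that minimum, among 12550 of 61806 genes on all chromosomes. The 109 members that start at 40 Mb or beyond form the distal block, and the 224 that start below 40 Mb form the proximal block. From 40 Mb on, 219 of 328 genes fell below the minimum and are not members. HEK293 is an aneuploid human line derived from embryonic kidney. The mutant group comprised 3 libraries from HEK293 cells into which the variant rs16851030 of ADORA1, the adenosine A1 receptor gene, had been introduced by CRISPR with homology-directed repair, and the wild-type group comprised 3 libraries from unedited HEK293 cells. Both groups share the parental line and carried no further treatment that the labels name. The sources used here do not say if the mutant cells were 1 clone, several clones or pooled cells. The labels call the libraries biological replicates without saying whether they were separate cultures, so the tests measure the spread between these libraries, which may be technical.

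The members were selected on the FPKM minimum, and the split at 40 Mb was chosen by the mutant and wild-type log2 fold changes themselves, with the difference between mutant and wild-type cells already in view. The fold changes and call counts of the blocks are therefore a description of that choice, given without a test of the block. A gene was called when its adjusted p was below 0.05 in edgeR's quasi-likelihood test over all 12550 genes, and a log2 fold change is the mutant less the wild-type value. Depth was 16013460 to 20349609 assigned counts per library. Of 8 HEK293-typical markers, 6 reached 1 FPKM in a wild-type library. Their sum was 142.54 to 147.13 FPKM in the mutant libraries, against 195.29 to 226.21 in wild-type libraries, and VIM made most of that gap (86.13 to 88.28 against 143.25 to 165.66). The other markers went both ways, with NEFL at 23.67 to 25.34 in the mutant against 15.99 to 19.1, and INA at 1.53 to 1.56 against 3.1 to 3.65. None of 14 markers of other cell types reached 1 FPKM in a wild-type library, and PTPRC, CD3E and HBB were at 0 in all 6 libraries. These other markers summed to 1.34 to 1.83 FPKM in the mutant libraries, against 0.88 to 1.05 in wild-type libraries. The part of these marker differences in the results below was not tested. In bulk RNA, fewer cells with a transcript and less transcript per cell cannot be told apart.

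Chromosome 22 is a small acrocentric chromosome whose genes lie on the long arm. Its distal end is gene-dense and holds genes of unrelated function, among them the Ku70 DNA repair protein gene XRCC6, the histone acetyltransferase gene EP300 and the synaptic scaffold gene SHANK3. Neighbouring genes often share a promoter region from which they are read in opposite directions, and many promoters of broadly expressed genes are rich in CG and in the GC box bound by SP1-type factors.

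The promoters of 3 distal genes that fell and 1 that rose are printed here. Counts were per gene, so no change was measured at the starts themselves. TTLL12, CCDC134 and MCAT are among the 10 largest falls of distal members with at least 5 FPKM, and PLXNB2 is among the 5 largest rises. Each printed window is the 250 bases before the RefSeq gene start (GRCh38.p14), 5′ to 3′ on the gene's strand. Capitals mark GGGCGG (GC box), CCGGAAG (ETS type) and CCAAT, searched on both strands, so that a match on the opposite strand appears as its reverse complement and matches of GGGCGG can overlap each other. They are TTLL12 at chr22:43187135-43187384 on the minus strand, CCDC134 at chr22:41800429-41800678 on the plus strand, MCAT at chr22:43143398-43143647 on the minus strand and PLXNB2 at chr22:50301670-50301919 on the minus strand. The PLXNB2 window precedes a RefSeq start inside the deposited span of the gene.
TTLL12: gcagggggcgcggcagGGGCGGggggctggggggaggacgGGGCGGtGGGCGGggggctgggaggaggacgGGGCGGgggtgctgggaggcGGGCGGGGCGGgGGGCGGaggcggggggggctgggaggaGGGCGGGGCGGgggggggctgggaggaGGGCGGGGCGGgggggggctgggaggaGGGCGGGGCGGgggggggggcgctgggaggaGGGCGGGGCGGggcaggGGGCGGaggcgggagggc
CCDC134: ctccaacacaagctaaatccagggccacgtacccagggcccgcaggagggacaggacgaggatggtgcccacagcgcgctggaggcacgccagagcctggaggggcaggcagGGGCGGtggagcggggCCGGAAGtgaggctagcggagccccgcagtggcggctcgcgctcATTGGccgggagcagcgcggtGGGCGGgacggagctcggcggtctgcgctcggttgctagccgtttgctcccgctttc
MCAT: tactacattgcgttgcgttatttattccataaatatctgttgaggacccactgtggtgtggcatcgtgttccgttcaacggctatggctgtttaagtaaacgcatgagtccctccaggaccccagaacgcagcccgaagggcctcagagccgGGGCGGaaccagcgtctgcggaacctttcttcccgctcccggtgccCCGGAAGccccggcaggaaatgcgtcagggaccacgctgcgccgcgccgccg
PLXNB2: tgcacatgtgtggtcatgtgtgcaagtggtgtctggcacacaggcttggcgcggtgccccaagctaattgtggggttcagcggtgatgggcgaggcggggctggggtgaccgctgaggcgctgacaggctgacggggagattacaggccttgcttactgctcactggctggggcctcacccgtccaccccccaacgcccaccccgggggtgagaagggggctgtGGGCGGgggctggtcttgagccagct
The TTLL12 window held 16 matches, each of them GGGCGG, and its GC content was 88.4%. CCDC134 held 4 matches, MCAT 2 and PLXNB2 1. All 4 windows thus held the GC box, which 44.6% of 27305 RefSeq promoters hold in 300 bases around the start (250 before and 50 after). CCGGAAG, present in the CCDC134 and MCAT windows, was in 10.7% of all promoters and CCAAT, present for CCDC134, in 35.7%. Over the 9167 tested genes with a matched window (73.0% of those tested), the shares were higher, at 72.9% for the GC box and 20.8% for CCGGAAG. Windows were matched for 69 of 109 distal members (63.3%), which is too few for a comparison of the blocks by GC content or motif, so none is given. A match is a description of the letters, not of binding.

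Distal members took a smaller share of the counts in every mutant library than in any wild-type library. Of the assigned counts they held 0.657%, 0.649% and 0.647% in the mutant libraries (replicates 1 to 3), compared with 0.807%, 0.793% and 0.804% in the wild-type ones. The means were 0.651% ± 0.0052 in the mutant and 0.802% ± 0.0075 in the wild type (SD, n = 3 each), a fall of the share by 18.8%. With 103538 to 144779 counts behind each share, the Wilson 95% interval was, for mutant replicate 3, 0.643% to 0.651%, and intervals of this kind cover counting error only. The most abundant member, XRCC6, did not carry the difference alone, since without it the means were 0.563% and 0.683%. Proximal members held 1.82% ± 0.0123 of counts in the mutant and 1.89% ± 0.031 in the wild type, a fall by 3.90%, and the groups did not overlap there either.

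The median distal member was at 0.829 of its wild-type level, a log2 fold change of -0.27, with quartiles at -0.55 and 0.00 and the whole range from -1.31 to 1.36. Of 109 members, 59 were called lower, 18 higher and 32 neither, beside a background in which 58.0% of all tested genes were called, 28.7% lower and 29.4% higher. The share called was 70.6% in the distal block, 54.1% of its members being lower. Mutant values lay below every wild-type value for 56 distal members and above for 19, where 28.1% and 34.8% of all tested genes did so. In all, 81 distal members had a fold change below 0 (74.3%, beside 50.1% of all tested genes). Of the 77 called distal members, 42 differed by less than 1.5-fold, 3 were at least 2-fold lower and 2 at least 2-fold higher. Among the 7284 called genes of the whole table, 5482 differed by less than 1.5-fold, as did 89 of 117 called proximal members. Changes under 1.5-fold thus made up a smaller part of the called distal members than of all called genes. The median log2 ratio over distal members was -0.24, -0.23 and -0.26 in the mutant libraries, compared with 0.03, -0.02 and 0.01 in the wild-type ones (replicates 1 to 3), so each mutant library showed the shift.

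Among the 224 proximal members, 80 were called lower, 37 higher and 107 neither, and the median was -0.09. The lower share there was 35.7%, beside 28.7% over all tested genes, and the higher share was 16.5% in both blocks. Thus the 2 blocks differed by -0.19 in their medians and both leaned the same way. Without mutant replicate 1 that difference was -0.13. Restricting the fit to genes with at least 5 FPKM left a difference of -0.070 (distal -0.22, proximal -0.15). In that restricted fit 40 of 63 distal members were called lower and 8 higher, against 60 lower and 21 higher of 127 proximal members.

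**Figure D1:**
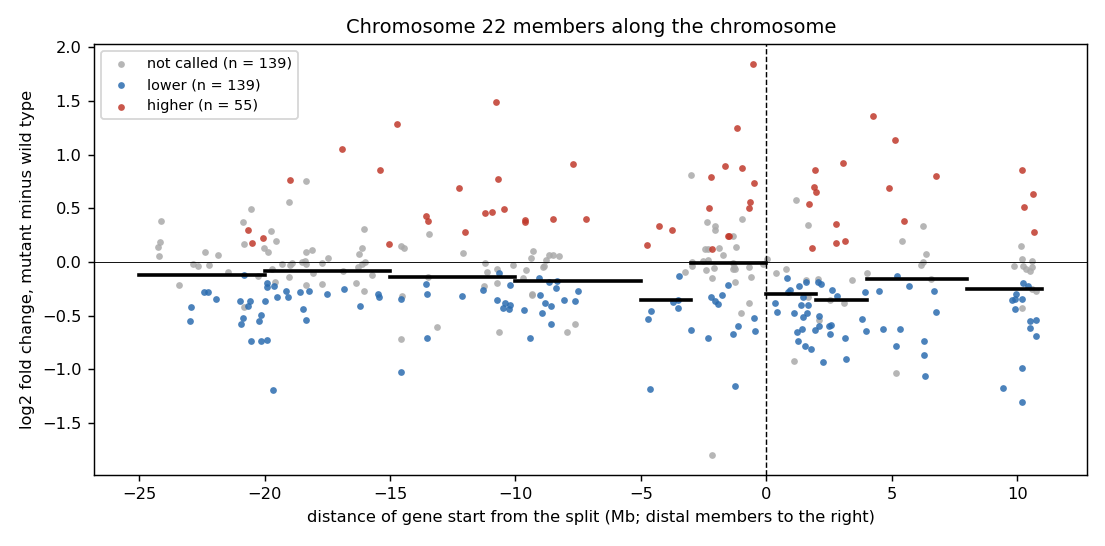
Log2 fold change (mutant minus wild type) of the 333 members against the distance of the gene start from the split in Mb, distal members to the right of the dashed line. Points are genes, coloured by call, and black bars are medians of segments, some of whose edges were chosen after the values were seen. The segment just left of the split has a median of -0.0049 and the segment just right of it -0.30.

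Along the block the lean to lower values was present in each of 4 segments, whose inner edges were chosen after the values were seen. The median was -0.30 over 32 members from 40 to 42 Mb (19 lower, 5 higher) and -0.35 over 25 members from 42 to 44 Mb (15 lower, 4 higher). It was -0.16 over 23 members from 44 to 48 Mb (11 lower, 5 higher) and -0.26 over 29 members from 48 to 52 Mb (14 lower, 4 higher). The label of a distal block against the rest of the chromosome held in part only. The 171 members below 37 Mb had a median of -0.13, with 68 lower and 25 higher (39.8% lower), and the 11 members from 35 to 37 Mb had a median of -0.35. The stretch from 37 to 40 Mb stood apart on this chromosome. Of its 53 members 12 were lower and 12 higher (22.6% each), with a median of -0.0049. Over all tested genes, 28.7% were lower and 29.4% higher, and the median was -0.0007. The edges at 37, 42, 44 and 48 Mb were chosen after these values were seen, so the segments are a description. Against 37 to 40 Mb alone the distal median was lower by 0.27 on the log2 scale, and against the members below 37 Mb by 0.14.

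No member spans 40 Mb, and the 5 genes nearest to it on the proximal side moved in both directions, whereas on the distal side 2 of 5 were lower and none was called higher. On the proximal side, MGAT3, a Golgi glycosyltransferase gene, measured 4.98, 5.17 and 4.70 FPKM in the mutant and 2.19, 0.84 and 0.98 in the wild type (log2 fold change 1.85, called higher). The next members inward to the split had log2 fold changes of -0.52 for MIEF1 (mitochondrial fission, lower), 0.73 for ATF4 (stress-response transcription factor, higher), -0.64 for RPS19BP1 (lower) and -0.01 for the pseudogene UQCRFS1P1 (not called). On the distal side they were 0.03 for TNRC6B (miRNA silencing, not called), -0.38 for ADSL (purine synthesis, lower), -0.10 for SGSM3 (not called), -0.46 for MRTFA (actin-regulated transcription coactivator, lower) and -0.07 for SLC25A17 (peroxisomal carrier, not called). TNRC6B measured 5.65, 5.04 and 5.48 FPKM in the mutant and 5.58, 5.40 and 4.56 in the wild type, so the member nearest the split overlapped between groups. At the expression minimum, the distal genes just inside were ENSG00000273243 (mean 1.03 FPKM) and ENSG00000273188 (1.04), and those just outside were ARHGAP8 (0.988) and ENSG00000273145 (0.967). The last of these was called higher in a fit without the minimum (log2 fold change 1.44). ENSG00000273243 was not called.

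Called-lower members often stood side by side, in a block where 54.1% of members were lower. The longest run of neighbouring members called lower was 8 genes, among them L3MBTL2, RANGAP1, ZC3H7B, TEF, TOB2 and PHF5A, with a median of -0.57. The call of TEF, which was measured below 2 FPKM in every library, was lost in limma on log2(FPKM + 0.1) and without mutant replicate 2 or 3. A run of 3, TTC38, GTSE1 and TRMU at chr22:46267961-46357340, had a median of -0.87. The longest proximal run was 4 genes, in a block where 35.7% of members were lower. Whether the runs exceed what these shares alone give was not tested. Some members overlap a neighbour in position, and no source used here states whether counting used strand, so reads in those overlaps cannot be assigned with certainty. Among the 67 distal members that overlap no other member, 35 were lower and 14 higher with a median of -0.20, and among the 42 that overlap one, 24 were lower and 4 higher with a median of -0.35. Starts of neighbouring distal members lay at most 2.65 Mb apart, between TBC1D22A and MIR3667HG, a noncoding host gene that was lower (-1.17).

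The cell cycle, replication and DNA repair list had 10 of 11 tested distal members lower and 1 higher, with a median of -0.63. As background to this and each list below, 28.7% of all tested genes and 54.1% of all distal members were lower. Of distal members at 10 to 20 FPKM 71.4% were lower, and at 20 FPKM or more 80.0%. Whether the lists differ from genes of like level was not tested. Loosely placed members of this list include PRR5, an mTORC2 subunit gene also counted with signalling genes, and the RAB-like gene RABL2B. XRCC6, whose product Ku70 binds broken DNA ends, measured 262.38, 275.87 and 271.74 FPKM in the mutant and 363.01, 360.18 and 376.54 in the wild type. Its 3 mutant values lay below all wild-type values (log2 fold change -0.47, SE 0.04). GTSE1, a microtubule-associated gene expressed in G2 and S phase, measured 14.92, 15.60 and 14.88 in the mutant and 25.87, 27.59 and 27.59 in the wild type, which did not overlap (-0.87, SE 0.05). NUP50, a nuclear pore component, measured 16.83, 16.13 and 16.85 in the mutant and 25, 30.19 and 28.75 in the wild type (-0.79, SE 0.06). RANGAP1, the GTPase activator for Ran in nuclear transport and at kinetochores, measured 45.74, 43.03 and 45.31 in the mutant and 72.07, 73.73 and 72.67 in the wild type (-0.74, SE 0.04). These genes thus fell to between 0.55 and 0.72 of their wild-type levels. CENPM, a centromere protein gene, fell by 0.63 on the log2 scale and NCAPH2, a condensin II subunit gene, by 0.55, both chosen after their values were seen. RBX1, the RING subunit of cullin ubiquitin ligases, was called lower at -0.26, but its mutant values of 25.38, 31.49 and 28.28 FPKM overlapped its wild-type values of 30.92, 33.94 and 34.75. TUBGCP6, a gamma-tubulin complex member, was also called lower with overlapping groups (-0.20), and its call was lost in both limma fits and without mutant replicate 3. SEPTIN3, a neuronal septin, was the list's 1 rise, from 5.96, 4.48 and 4.70 FPKM in the wild type to 8.26, 8.16 and 8.0 in the mutant (0.66, SE 0.08).

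RNA processing and translation counted 7 of 8 tested distal members lower, none higher and 1 not called (TNRC6B), with a median of -0.59. This stands beside 54.1% lower over the whole distal block. TRMU, which modifies mitochondrial tRNA, measured 5.48, 4.86 and 5.11 FPKM in the mutant and 9.99, 11.10 and 10.47 in the wild type. Its groups were about 1 doubling apart (-1.06, SE 0.06), the lowest value among distal protein-coding members. PHF5A, a splicing factor 3B subunit, measured 45.67, 49.67 and 49.41 in the mutant and 66.36, 64.91 and 69.70 in the wild type (-0.51). SNU13, a component of the spliceosome and of nucleolar RNPs, measured 41.90, 43.41 and 41.35 in the mutant and 54.54, 52.86 and 56.32 in the wild type (-0.40). RRP7A, a ribosome biogenesis gene, was lower (-0.59), and because RRP7BP is a near-identical copy nearby its reads are uncertain. Lists overlap: RANGAP1, TNRC6B and TRMU also count elsewhere.

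Among transcription and chromatin regulators 10 of 14 tested distal members were lower, 1 higher and 3 not called (median -0.38). L3MBTL2, a Polycomb-type chromatin reader, measured 11.42, 11.63 and 11.67 FPKM in the mutant and 17.93, 16.81 and 18.46 in the wild type, with no overlap (-0.65, SE 0.05). EP300 measured 12.17, 11.34 and 11.86 in the mutant and 16.09, 17.69 and 14.35 in the wild type (-0.48), also with no overlap. TOB2, an antiproliferative gene linked to mRNA deadenylation, fell by 0.63 on the log2 scale. BRD1, a bromodomain scaffold of histone acetyltransferases, fell by 0.36 (chosen after its value was seen). The one rise in this list was SREBF2, the transcription factor of cholesterol synthesis genes, at 26.40, 24.76 and 24.68 in the mutant and 23.60, 22.31 and 21.76 in the wild type. That rise is small (0.13, SE 0.04), and the call was lost without mutant replicate 1, without wild-type replicate 3 and in the fit without an FPKM minimum. PPARA, a nuclear receptor of fatty acid catabolism, stood at -0.02 and ZBED4 at -0.04, neither called. PHF21B, a PHD finger protein gene that was higher (0.69), is counted with signalling genes and not here.

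Mitochondrial proteins counted 10 of 12 tested distal members lower, 1 higher and 1 not called (median -0.44). SAMM50, the outer-membrane assembly channel, measured 12.29, 12.02 and 12.17 FPKM in the mutant and 19.46, 17.43 and 18.62 in the wild type (-0.64). MCAT, the mitochondrial fatty acid synthesis transferase whose promoter is printed above, measured 10.90, 11.12 and 10.64 in the mutant and 16.87, 15.53 and 19.88 in the wild type (-0.71, SE 0.08). NDUFA6, an accessory subunit of complex I, measured 36.64, 41.81 and 35.36 in the mutant and 48.36, 53.29 and 55.46 in the wild type (-0.50). For these 3 genes each mutant value lay below each wild-type value. SMDT1, a regulator of the calcium uniporter, was called lower at -0.19, and this call was lost in 9 of the alternatives tried, among them DESeq2 and library totals as scaling. SCO2, a copper chaperone of cytochrome oxidase, was lower (-0.62) with overlapping groups, and its call was lost in 7. TSPO, the outer-membrane translocator protein, was higher (0.20), a call lost without mutant replicate 1, mutant replicate 3 or wild-type replicate 2 and in the fit without an FPKM minimum.

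The secretory, chaperone and lysosome list was more mixed, with 8 lower, 4 higher and 4 not called of 16 (median -0.17). It also holds loosely placed members, such as the tubulin ligase-like genes TTLL12 and TTLL1. TTLL12 measured 35.81, 33.54 and 32.51 FPKM in the mutant and 62.00, 62.44 and 62.10 in the wild type, groups that were far apart (-0.90, SE 0.04). ST13, an Hsp70-interacting cochaperone, measured 127.89, 127.14 and 129.51 in the mutant and 138.34, 137.74 and 140.74 in the wild type, a small fall (-0.15, SE 0.04). CRELD2, an endoplasmic reticulum stress protein, was lower (-0.44), and so was ATXN10 (-0.22). Rises were TTLL1 (0.93), ARSA, the lysosomal arylsulfatase A gene (0.64), FBLN1, the matrix protein fibulin-1 (0.38), and ARFGAP3, a Golgi GTPase activator (0.17). ARFGAP3 overlaps PACSIN2, and its call was lost in 5 alternatives. The lipase maturation gene LMF2 stood at -0.08 and was not called.

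Kinases, phosphatases and signalling genes did not lean as far, with 5 lower, 4 higher and 8 not called of 17 (median -0.06). The lower members were ADSL (-0.38), which belongs to purine synthesis, PRR5, an mTORC2 subunit gene (-0.63), TBC1D22A (-0.46), PIM3, a serine/threonine kinase gene (-0.30), and SBF1, a myotubularin-related gene (-0.22). PLXNB2, a semaphorin receptor, measured 18.30, 18.28 and 17.93 FPKM in the mutant and 14.39, 11.19 and 11.70 in the wild type (0.52, SE 0.07). SHISAL1 was the highest rise of the block, with 2.50, 2.08 and 2.32 in the mutant and 0.88, 0.84 and 0.91 in the wild type (1.36, chosen after its value was seen). PHF21B, a PHD finger protein gene loosely placed in this list (0.69), and the synaptic gene SHANK3 (0.28) also rose. The call of SHANK3 was lost in 4 alternatives. MAPK12, a p38 kinase gene (-0.04), MAPK8IP2, a JNK scaffold gene (-0.05), and CELSR1, a planar polarity cadherin gene (0.07), were not called. In the ubiquitin list, 2 of 3 tested distal members were lower.

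Of the 72 distal members in at least 1 list, 45 were lower and 11 higher (median -0.29), and of the 37 in none, 14 were lower and 7 higher (median -0.27). Outside the lists, TTC38, a tetratricopeptide repeat gene, measured 12.64, 11.80 and 11.97 FPKM in the mutant and 19.99, 19.30 and 20.09 in the wild type (-0.74, SE 0.06). CCDC134, which encodes a secreted coiled-coil protein, measured 3.70, 3.21 and 4.19 in the mutant and 5.92, 6.49 and 6.65 in the wild type (-0.81, SE 0.08). Both had mutant values below every wild-type value. Protein-coding members made up 86 of the block, 52 of them lower and 13 higher, and the 23 of other types counted 7 lower and 5 higher.

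The 18 distal members that rose were C22orf46, SREBF2, SHISA8, SMIM45, SEPTIN3, RPL5P34, ARFGAP3, TTLL1, TSPO, SHISAL1, PHF21B, NUP50-DT, FBLN1, TBC1D22A-DT, TRABD-AS1, PLXNB2, ARSA and SHANK3, of which those outside the naming rule were listed after their values were seen. Their median FPKM was 3.44 in wild-type and 5.62 in mutant libraries, against 12.6 and 10.3 among members called lower. RPL5P34, at 0.36, is a pseudogene of RPL5 whose reads may be shared with its parent, and its call was lost without mutant replicate 3. In 12 of the 18, wild-type replicate 1 was the wild-type library nearest the mutant values, as in 53.0% of all genes called higher. Without that library, 20 distal members were called higher and 58 lower.

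At 3 of 9 pairs of distal members that start within 1000 bases of each other on opposite strands, the noncoding gene rose and its coding neighbour fell. NUP50-DT measured 1.51, 1.84 and 1.84 FPKM in the mutant and 1.18, 0.59 and 0.52 in the wild type (1.13), 114 bases from the start of NUP50, which was lower. TBC1D22A-DT was higher (0.80) and TBC1D22A, whose start is 53 bases away, lower (-0.46). TRABD-AS1, with 8.15, 5.88 and 6.43 FPKM in the mutant and 3.51, 3.61 and 4.0 in the wild type, was higher (0.85), and SELENOO, which starts 174 bases away, was lower (-0.35). TRABD itself, on the other strand from TRABD-AS1, stood at 0.03 and was not called. At 3 further pairs both genes fell: ST13 with XPNPEP3, DESI1 with XRCC6, and ALG12 with CRELD2. Among 23 proximal pairs, 4 fell together and 3 moved in opposite directions. As background, 54.1% of distal members, 35.7% of proximal members and 28.7% of all tested genes were lower. The higher shares were 16.5% in each block and 29.4% of all tested genes. Whether the pair counts exceed what these shares alone give was not tested. The pairs were singled out after their values were seen, and without strand in the counting the members of overlapping pairs cannot be told apart.

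The share of members called lower moved with their expression level. Of the distal members, 6 of 20 were lower at 1 to 2 FPKM, 11 of 26 at 2 to 5, 6 of 15 at 5 to 10, 20 of 28 at 10 to 20 and 16 of 20 at 20 or more. Proximal members were lower in 3 of 53, 11 of 44, 15 of 37, 21 of 41 and 30 of 49 genes over the same ranges, and the shares of all tested genes were 11.6%, 20.3%, 30.8%, 36.4% and 44.9%. So the distal share exceeded the proximal share in every range but 5 to 10 FPKM, where they were about equal. The distal median log2 fold changes did not follow level in this way, at -0.39, -0.17, -0.16, -0.24 and -0.35 over the same ranges. Proximal medians were 0.10, 0.01, -0.15, -0.23 and -0.22, and those of all tested genes 0.16, 0.08, -0.01, -0.05 and -0.09. The medians of the 2 blocks thus lay furthest apart at 1 to 2 FPKM. Among members of at least 10 FPKM, 36 of 48 distal genes were lower with a median of -0.27 and 51 of 90 proximal genes with a median of -0.22. The median wild-type level was 6.61 FPKM for distal, 6.75 for proximal and 6.42 for all tested genes, and the median exonic length 4623, 4450 and 4888 bases. The median coefficient of variation between replicates was 5.29% in the mutant and 6.35% in the wild type for distal members, beside 4.95% and 6.07% for all tested genes.

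Proximal members of at least 5 FPKM changed in both directions. HMOX1, which encodes heme oxygenase 1, measured 5.99, 6.29 and 6.17 FPKM in the mutant and 16.56, 12.31 and 11.97 in the wild type (-1.18). The other largest proximal falls were RTL10 (-0.74), UFD1, a ubiquitin-fusion degradation factor gene (-0.73), DGCR8, the microprocessor subunit gene (-0.73), and PES1, a ribosome biogenesis gene (-0.71). ATF4 measured 354.57, 389.69 and 381.57 in the mutant and 227.10, 212.82 and 221.88 in the wild type (0.73). RPL3, a large-subunit ribosomal protein gene, measured 380.43, 408.10 and 394.41 in the mutant and 281.31, 262.44 and 272.13 in the wild type (0.50), and reads shared with RPL3 pseudogenes make it uncertain. APOBEC3C, a cytidine deaminase gene (0.88), and the synaptic vesicle gene SYNGR1 (0.56) rose as well. ATF4, RPL3, APOBEC3C and SYNGR1 all start between 37 and 40 Mb, the stretch whose median was near 0. TOMM22, a mitochondrial import receptor gene in the same stretch, fell by 0.67.

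By list, the proximal members were lower in 10 of 16 mitochondrial genes (distal 10 of 12) and 12 of 18 RNA processing and translation genes (distal 7 of 8). They were lower in 10 of 21 transcription and chromatin regulators (distal 10 of 14). In the cell cycle, replication and DNA repair list they were lower in 4 of 8 (distal 10 of 11). As background, 35.7% of all proximal members, 54.1% of all distal members and 28.7% of all tested genes were lower. Lists in both blocks hold loosely placed members, such as PNPLA3 and MICALL1 in the mitochondrial list and SMTN and CDC42EP1 in the cell cycle list. Others are proximal, BCL2L13 and PES1 among the transcription and chromatin regulators and YDJC and DNAL4 in the RNA processing list. PES1 was lower, and BCL2L13, YDJC and DNAL4 were not called. The medians were -0.23, -0.27, -0.14 and -0.20 for the proximal lists, each nearer 0 than the distal medians given above. Signalling genes had the lower median in the proximal block (-0.13, 8 of 18 lower). So did ubiquitin genes by their median (-0.27, distal -0.18), though 4 of 7 were lower there and 2 of 3 in the distal block. These differences between blocks were not tested. Of the 7 APOBEC3 genes 3 were tested and 1 rose, and of the 6 APOL genes 1 was tested, APOL2, which rose by 0.30 with a call lost without mutant replicate 1 and without wild-type replicate 1.

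Beside other stretches of the genome, the distal block lay between chromosome 10 and the rest of chromosome 22. The 492 tested genes of chromosome 10 had a median of -0.36 with 65.0% lower, and the 110 genes of chromosome 20 below 26 Mb a median of -0.33 with 60.0% lower. Chromosome 16 went the opposite way, with a median of 0.29 over 578 genes and 62.6% higher. Chromosome 21, another small acrocentric chromosome, had a median of -0.01 over 130 genes with 26.2% lower. Chromosome 22 as a whole had a median of -0.16 with 41.7% lower. DNA copy number and DNA sequence were not measured in these files.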

How the data were processed

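Poly(A) RNA of 3 mutant and 3 wild-type HEK293 libraries was analysed from one deposited table that, per the file headers, holds counts and FPKM for 61806 genes. The deposited counts and FPKM were made by the authors; cutadapt, HISAT2 (2.0.1), HTSeq and GRCh38 are named per the submitters' processing notes. No source used here gives the annotation release or the strand setting. Of the 333 members, 330 identifiers were found in GENCODE 29, which gave gene type, and 144 had identical coordinates there. Position and strand of each gene came from the deposited table.

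Counts of the 12550 genes that averaged 1 FPKM or more were scaled by TMM (factors of 0.980 to 1.017) and tested two-sided with edgeR 4.0.16 in R 4.3.3 (quasi-likelihood F-test, genotype the single factor), with Benjamini-Hochberg adjustment over all of them and calls at an adjusted p below 0.05. The common biological coefficient of variation was 0.0478. SE values come from the same fit, medians are over the log2 fold changes, and library ratios use log2 of CPM with 0.05 added. Those ratios are to the wild-type mean, from which a wild-type library was left out when it was itself compared. The fit was tested first on simulated data in which few genes changed, as many up as down. That test does not cover data in which 58.0% of genes were called.

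The members, gene lists and rules were chosen with earlier results of these data known. Named genes were the 5 members on each side of the split, the 10 lowest and 5 highest distal and the 5 lowest and 5 highest proximal fold changes at a mean of at least 5 FPKM, the 4 distal and 2 proximal members of each list with the highest FPKM, and the 5 most abundant distal members. Other genes named were chosen after their values were seen. Some genes that this rule takes in are not reported here. Alternatives were other scalings, DESeq2 1.42.0, limma 3.58.1 on log2(FPKM + 1) and log2(FPKM + 0.1), other expression filters, protein-coding genes only, other positions of the split, leaving out each library, and a replicate block.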

Additional observations from a re-analysis of the deposited data

How the results depend on the processing

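Fold changes of the distal block stayed below 0 in the median under every alternative run. The distal median of -0.27 was -0.24 with library totals as scaling, -0.21 and -0.24 with limma on log2(FPKM + 1) and log2(FPKM + 0.1), -0.22 at a minimum of 5 FPKM and -0.22 with the split at 38 Mb. The distal minus proximal median of -0.19 was -0.16 with limma on log2(FPKM + 1), -0.16 at 10 counts without an FPKM minimum, -0.070 at 5 FPKM, -0.17 for protein-coding genes, -0.12, -0.16 and -0.15 with the split at 38, 39 and 42 Mb, and -0.13 to -0.19 with 1 library left out. Chosen after seeing the data, comparison with members below 37 Mb gave -0.14 and with 37 to 40 Mb -0.27, where the proximal median is -0.0049 and 24 proximal genes were called. At 5 FPKM the proximal median was -0.15, and 48 distal genes and 4597 genes in all were called, since fewer genes were tested. The cause of the other shifts was not tested.

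Replicate numbers did not pair the libraries (correlations of deviations 0.004, -0.044 and -0.013). With the replicate block, 58 distal members were lower and 18 higher and no median changed by more than its spread. Over 113 genes followed singly and 1771 values under alternatives, 51 lost their call, 6 gained it, none changed sign while called and 24 changed sign while called in neither. The genes that lost it in some alternative numbered 14. Among the 77 called distal members, between 69 and 77 kept their call and direction in alternatives that tested all of them. By level, 10 of 20 distal members at 1 to 2 FPKM and 2 of 20 at 20 FPKM or more were not called.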

Other observations

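Below the expression minimum, 71 further distal genes had at least 10 counts over the 6 libraries, and in a fit that included them 5 were lower, 4 higher, 36 had a fold change below 0 and the median was -0.06. The higher genes were ADM2, which encodes the peptide intermedin (1.16), the secreted protein gene SCUBE1 (1.73), MPPED1 (1.71) and ENSG00000273145 (1.44). SCUBE1 had 85, 70 and 84 counts in the mutant and 30, 20 and 18 in the wild-type libraries. Among the lower genes, HDAC10, a polyamine deacetylase gene, had 63, 42 and 42 counts in the mutant and 64, 75 and 55 in the wild-type libraries (-0.49). Over all chromosomes, 9386 genes of this kind were lower in 5.56% and higher in 15.7%, whereas 7.04% of the distal ones were lower and 5.63% higher. These genes were named after their values were seen, and the difference in shares was not tested.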
